A study of Macrobrachium rosenbergii with 9 samples.

Results

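Transcript levels were compared between the androgenic gland and the testis of adult male Macrobrachium rosenbergii, the giant freshwater prawn, strain CMr1. All libraries carrying either tissue label were used, which gave 3 of androgenic gland and 3 of testis, 6 of the 9 libraries of the series. The 3 ovary libraries entered no test. The labels give no treatment or transgene for either tissue. They do not say whether libraries of a tissue came from separate prawns, so the spread behind each p-value is that between these libraries and may be technical. Nor do they say whether a gland and a testis with the same number came from 1 prawn.

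The androgenic gland is an endocrine organ of male crustaceans that lies along the end of the sperm duct. It secretes the insulin-like androgenic gland hormone, which drives and maintains male differentiation, and its removal or silencing in young male prawns can turn them into functional females. The testis is the male gonad, in which germ cells divide, pass through meiosis and form sperm beside supporting somatic cells. The gland therefore gives the male endocrine signal, while the testis makes the gametes. The study's title names sex determination and the transcription factors behind it as its subject.

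The table held 21071 transcripts, named by IDs such as those given below for single transcripts. Each ID carries the word Female (14774 transcripts) or Male (6297), a number after the letter f, and a length. In long-read consensus IDs of this form the letter f is followed by the number of full-length reads behind the sequence. The sources used here do not say how the transcripts were made or what the sex words stand for. No gene name stands beside an ID in the files, and 0 of them matched any of the 31758 genes in the RefSeq table. Transcripts are therefore described by ID, sex label, length and level, and neither tissue was checked against its marker genes. Several transcripts can come from 1 gene and share its reads, so the counts below are of transcripts and not of genes.

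Total counts were 7142794 to 9868078 in the testis libraries and 10409895 to 11177153 in the androgenic gland libraries. The androgenic gland libraries are called gland 1 to 3 below. Testis 2 stood apart from the other testis libraries. Across the 13605 transcripts tested, its log2 levels correlated with those of testis 1 and 3 at 0.69 and 0.74, while testis 1 and 3 correlated at 0.90. The gland libraries correlated with each other at 0.88 to 0.91, and with the testis libraries at 0.42 to 0.58, the highest being gland 2 with testis 2. These correlations describe the libraries, since transcripts are not independent replicates. Testis 2 is named by its label, and no marker gene was at hand to check that label. If it did not hold, the 3-library testis means and p-values below would not stand for testis alone. The numbers of called transcripts and the transcripts named by ID are therefore given with and without testis 2. Most other counts and group shares below rest on all 3 testis libraries.

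Androgenic gland and testis differed in nearly as many transcripts as were left uncalled. Of the 13605 transcripts with enough counts, 2593 were higher in androgenic gland than in testis, 19.1% of those tested, and 3899 were lower, 28.7%, which makes 47.7% in either direction. A transcript was called at an adjusted p under 0.05 (two-sided quasi-likelihood test of edgeR, Benjamini-Hochberg adjustment) and a fold change of at least 2. The remaining 7113 transcripts were not called, which does not show that their levels were equal. The lower transcripts were changed more strongly. Their median log2 fold change was -2.95, or -2.88 with transcripts that had no count in the gland set to the limit of 3 counts over the tissue, against 1.98 for the higher ones. With that limit, 611 transcripts were at least 32-fold lower in the gland and 139 were at least 32-fold higher. In bulk tissue, fewer cells of a type and less RNA per cell cannot be told apart.

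**Figure D1:**
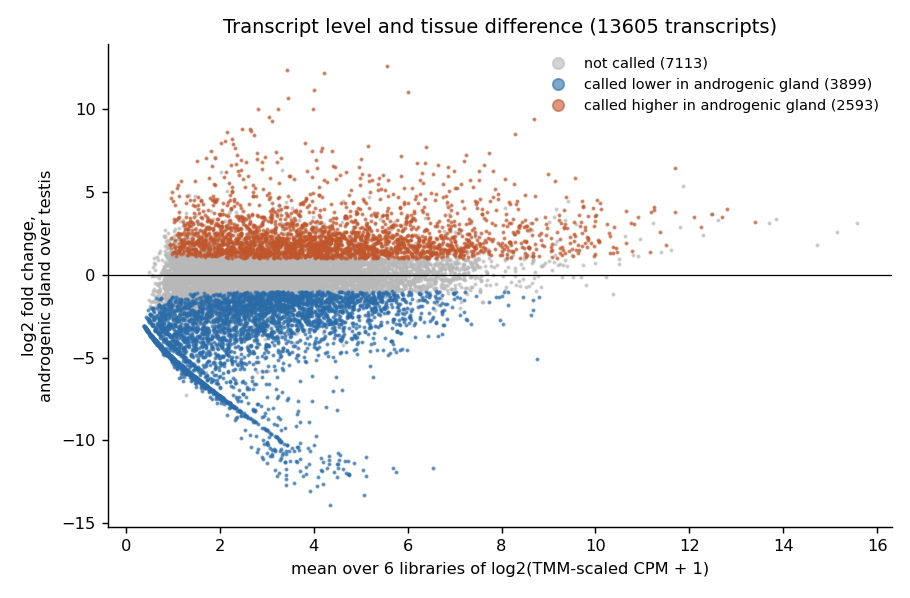
Mean level over the 6 libraries (horizontal, log2 of TMM-scaled CPM plus 1) against the fitted log2 fold change of androgenic gland over testis (vertical), 1 point per transcript. The 2593 transcripts called higher extend to higher levels than the 3899 called lower, and the points at the far right are mostly not called.

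The excess of lower transcripts lay in those reaching the count minimum in all testis libraries but not in all gland libraries. The minimum, about 0.986 CPM (counts scaled to a common library total) in at least 3 libraries, was reached in all libraries of both tissues by 8157 transcripts. Of these 2236 were higher in the gland and 1368 lower, 27.4% and 16.8%. The minimum was set on counts scaled to library totals, while calls used the TMM factors given below. Those factors are lower in the gland, so on the TMM scale the minimum stood higher there. This favours transcripts higher in the gland, so the balance of the 8157 supports no direction. A further 4205 transcripts reached the minimum in all testis libraries but not in all gland libraries, and 2531 of these were lower and 12 higher. Only 457 did the reverse, of which 275 were higher and 0 lower. The latter groups had to differ to some degree to be sorted there, so their counts describe where the calls lie and support no direction. Reaching the minimum in both tissues also removes the strongest changes on either side, though not evenly.

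The balance also turned on the scaling. Libraries were scaled with TMM factors, which compare each transcript with the bulk of transcripts. The factors were 1.559, 1.588 and 1.906 in testis 1 to 3 and 0.65, 0.4609 and 0.7078 in gland 1 to 3. Scaling to library size alone shifted the median log2 fold change of all tested transcripts from -0.25 to -1.69. It left 526 transcripts called higher, 3.87%, and 7198 called lower, 52.9%, which put 6.81% of the calls on the higher side instead of 39.9%. All 526 were among the 2593, and all 3899 lower transcripts were called lower under both scalings. None of the 2593 was called lower under library size scaling. Among the 8157 transcripts at the minimum in both tissues, 379 were higher and 3713 lower under that scaling, so the excess of higher calls there was reversed. Levels below are TMM-scaled CPM, and directions are relative to the bulk of transcripts.

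At most 2 IDs are named in each direction, chosen by their high level in the higher tissue. They were taken from transcripts called with and without pairing of library numbers. Those also had to show no overlap between tissues and 1 sign in all same-numbered pairs. These traits of the named transcripts are therefore fixed by the rule. The transcript transcript_HQ_Male_transcript1010/f7p0/2852 stood at 35525, 61626 and 28734 CPM in gland 1 to 3 and at 142, 1186 and 124 CPM in testis 1 to 3. Every gland library was above every testis library, and testis 2 was the highest of the testis libraries. The fitted log2 fold change was 6.44 ± 1.47 (± gives a rough SE here and below; edgeR's quasi-likelihood test, adjusted p = 0.0123). Without testis 2 it was 8.31 (edgeR, adjusted p = 0.00273).

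The other higher transcript was the steadiest of the 10 with most reads in the gland, relative to its mean. Its ID is transcript_HQ_Male_transcript9438/f2p0/1029, and it stood at 36091, 37113 and 34946 CPM in gland 1 to 3. In testis 1 to 3 it had 1876, 7339 and 2452 CPM, again highest in testis 2 and below the gland throughout. The fitted change of 3.21 ± 0.95 log2 units passed the threshold (edgeR, adjusted p = 0.0309). The call did not hold under library size scaling, where the change was 1.76 log2 units (edgeR, adjusted p = 0.185). It was also lost without any 1 of the gland libraries or without testis 1 or 3, with edgeR adjusted p between 0.0533 and 0.0933. Without testis 2 the change was 4.05 log2 units (edgeR, adjusted p = 0.00504).

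In the other direction, transcript_HQ_Male_transcript5868/f657p0/1346 was among the transcripts with most reads in testis. It stood at 21142 CPM in testis 1 and 11389 CPM in testis 3, but at 36.7 CPM in testis 2. Gland 1 to 3 had 3.17, 2.30 and 4.07 CPM, which are 23, 11 and 32 counts. The tissues did not overlap, but testis 2 lay much closer to the gland on the log scale than to the other testis libraries. The fitted change was -11.69 ± 2.43 log2 units (edgeR, adjusted p = 0.00916), and -12.27 without testis 2 (edgeR, adjusted p = 0.00137). Within pair 2, the testis had 16.0 times the level of the gland, against 6670.0 and 2797 times in pairs 1 and 3.

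The same shape was seen in transcript_HQ_Male_transcript8133/f2p0/1233. Its levels were 11678, 26.5 and 5851 CPM in testis 1 to 3 and 1.52, 1.04 and 1.65 CPM in gland 1 to 3. The fitted log2 fold change was -11.92 ± 2.35 (edgeR, adjusted p = 0.00774). Without testis 2 it was -12.49 (edgeR, adjusted p = 0.00137). In the ovary libraries, which entered no test, the 4 named transcripts had at most 19.5 estimated counts in any library.

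For the 10 transcripts that took most reads in the gland, TMM-scaled levels in every gland library were above those in every testis library, yet only 3 of the 10 were called. Of all tested transcripts, 26% lay above testis in this way and 19.1% were called higher. The 10 were picked by their level in the gland libraries, which favours levels above testis. Of the 10, 8 carry the male label and 5 are under 1000 bases long. Since longer transcripts yield more reads, levels were also divided by length, and 8 of the 10 remained among the 10 highest per kilobase. At the head stood a female label transcript of 482 bases, at 173852, 226241 and 88629 CPM in gland 1 to 3 and at 8711, 34688 and 12216 CPM in testis 1 to 3. Per kilobase it ranked first in each of the 6 libraries. By reads it ranked first in each gland library but 8, 2 and 2 in testis 1 to 3. The fitted change of 3.14 ± 1.40 log2 units was not called (edgeR, adjusted p = 0.106).

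Next came a male label transcript of 617 bases, with 69065, 188058 and 74869 CPM in the gland and 9858, 38171 and 6061 CPM in testis. A male label transcript of 758 bases had 48431, 84495 and 50492 CPM in the gland and 1601, 13466 and 2331 CPM in testis. It carries the ID number f3085, against a largest value of 3625 in the table. In both, the libraries numbered 2 were the highest of their tissue.

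The widest gap among the uncalled transcripts of this list was in one of 2832 bases with the male label. Gland 1 to 3 had 31065, 104806 and 21407 CPM and testis 1 to 3 had 92.5, 3656 and 114 CPM. The fitted log2 fold change of 5.35 (edgeR, adjusted p = 0.0609) rose to 9.01 without testis 2 (edgeR, adjusted p = 0.00486). Testis 2 was the highest testis library in 9 of the 10 transcripts, and gland 2 the highest gland library in 9.

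The exception on the testis side was a female label transcript of 1295 bases. It stood at 16504, 14698 and 12429 CPM in testis 1 to 3 and at 43840, 44398 and 63968 CPM in gland 1 to 3. The fitted log2 fold change of 1.80 was the smallest of the list (edgeR, adjusted p = 0.135), and was 1.81 without testis 2 (edgeR, adjusted p = 0.0513).

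For these 10 transcripts the number called turned on the fit. With a term per library number, 9 of the 10 were called higher, and without testis 2 also 9. DESeq2 and limma-voom called all 10, and under library size scaling 1 was called. Leaving out any other single library left 1 or 2 calls. Of all 13605 tested transcripts, 20.6% were called higher with that term, 18.1% without testis 2 and 3.87% under library size scaling. DESeq2 and limma-voom called 2691 and 2652 of them higher.

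**Figure D2:**
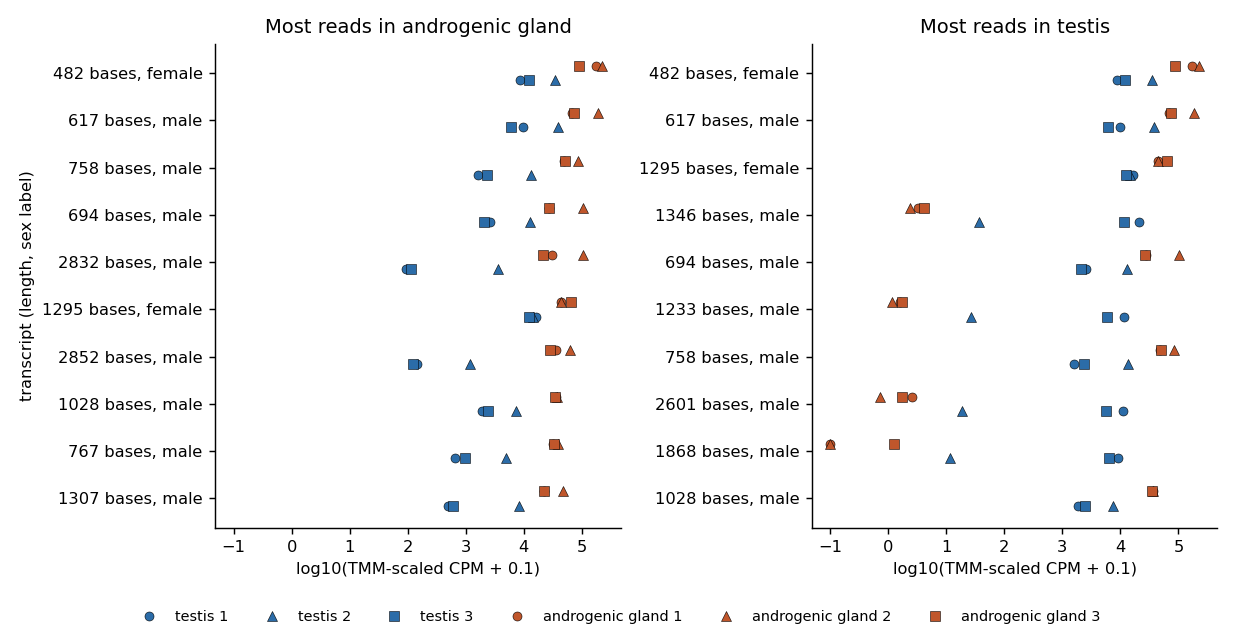
Level in each library (horizontal, log10 of TMM-scaled CPM plus 0.1) of the 10 transcripts with most reads in androgenic gland (left) and in testis (right), ordered by mean level, with testis in blue and gland in orange. The gland's 10 have scaled levels above testis in every gland library, and 4 of testis' 10 have testis 1 and 3 near the top of the scale with testis 2 (blue triangle) far below. A gland level of 0 is drawn at -1.

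Of the 10 transcripts with most reads in testis, 6 were also among the gland's 10, with TMM-scaled levels above testis in every gland library, though only 1 of the 6 was called. As unscaled shares of counts the tissues overlap in part. The transcript of 617 bases took 4.48% in gland 1 and 5.99% in testis 2. The other 4 all carry the male label, were called lower in the gland, as were 28.7% of all tested transcripts, and nearly vanished in testis 2. They include both transcripts named above as lower. A transcript of 2601 bases stood at 11165, 18.7 and 5650 CPM in testis 1 to 3 and at no more than 2.48 CPM in the gland. For a transcript of 1868 bases the values were 8944, 11.4 and 6337 CPM in testis and 0, 0 and 1.15 CPM in the gland. All 4 were called lower under library size scaling as well.

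Comparison within same-numbered pairs left most directions as they were. The log2 ratio of gland to testis had 1 sign in all 3 pairs for 10408 of 13605 transcripts, above 0 for 4566 and below 0 for 5842. Of the transcripts called higher 2586 of 2593 were above 0 in every pair, and of those called lower 3896 of 3899 were below 0. At least a 2-fold difference in every pair was seen for 2002 of the higher and 3394 of the lower transcripts. Since calls and pairs use the same libraries, these counts describe the calls and are no separate evidence.

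A fit with library number as a term called 2807 transcripts higher, 20.6%, and 3979 lower, 29.2%. It shared 2440 higher and 3698 lower transcripts with the fit without it. Calls in the same direction with that term and after leaving out each of the 6 libraries in turn were made for 1663 of the higher and 2893 of the lower transcripts. All gland libraries lay above all testis libraries for 3532 transcripts, 26% of those tested, and below them for 4964, 36.5%. Of these 8496 transcripts, 62.4% of those tested, 2056 were not called. At the other end, 634 transcripts were within 0.5 log2 units of equal levels in every pair.

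Pair 2 went its own way more often than the others. Its ratios correlated with those of pairs 1 and 3 at 0.78 and 0.79 (Pearson) across 13605 transcripts, while pairs 1 and 3 correlated at 0.89. The pairs share no library. In 130 transcripts pair 2 differed by at least 2-fold in the opposite direction to both other pairs, against 34 for pair 1 and 45 for pair 3. Of the 130, the gland was lower only in pair 2 in 83 and higher only in pair 2 in 47. The overall difference was no smaller in pair 2, with a median absolute log2 ratio of 1.55 against 1.37 in each of the other pairs.

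**Figure D3:**
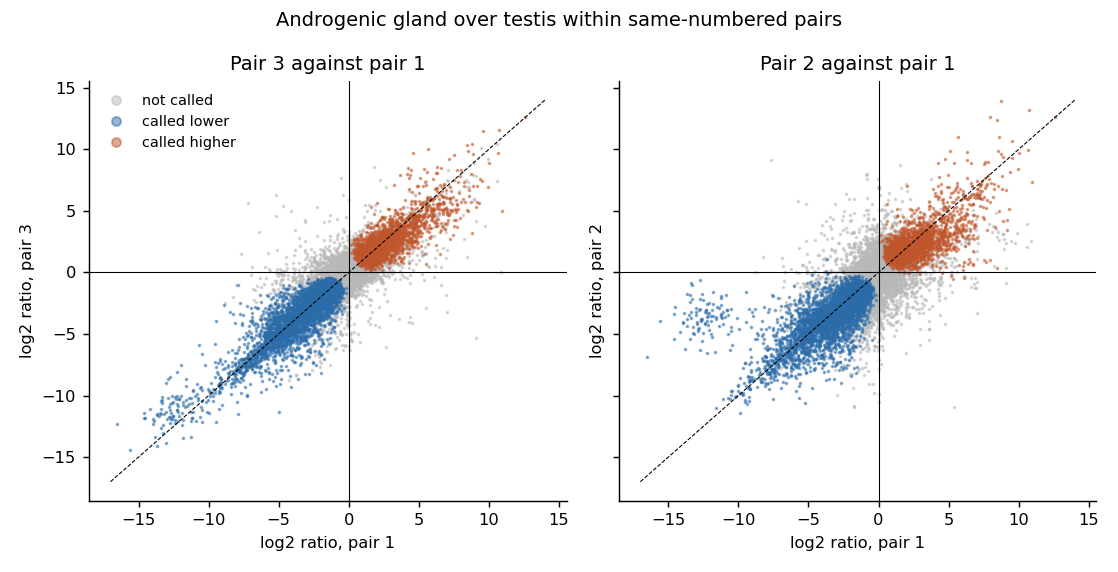
Log2 ratio of androgenic gland to testis within pair 1 (horizontal) against pair 3 (left) and pair 2 (right), 1 point per transcript, with the dashed line marking equal ratios. Pairs 1 and 3 follow the line, while in pair 2 a cloud of 94 called transcripts has a median ratio of -3.50 where pair 1 has -12.33.

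The cloud set apart in pair 2 consisted of testis transcripts with little signal in testis 2. Among the transcripts called lower in the gland, 94 were at least 32-fold lower in testis 2 than in both other testis libraries, and all 94 carry the male label, against 36.8% of all tested transcripts. Their median levels were 1095, 1.90 and 535 CPM in testis 1 to 3 and 0.138, 0 and 0.127 CPM in gland 1 to 3. The gland was still below testis in every pair for all 94. Their median log2 ratios were -12.33, -3.50 and -11.33 in pairs 1 to 3. These transcripts were picked by their low value in testis 2 and by their call, so both are descriptions only.

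Over all tested transcripts, 478 were at least 4-fold lower in testis 2 than in both other testis libraries, 148 of them at least 32-fold, against 310 and 109 at 4-fold for testis 1 and 3. In the other direction 556 were at least 4-fold higher in testis 2 than in testis 1 and 3, against 95 and 108 for testis 1 and 3. Of the 556, 488 were not called, 51 were called higher in the gland and 17 lower. Their median levels were 0.60, 42.0 and 1.71 CPM in testis 1 to 3 and 1.24, 12.1 and 4.01 CPM in gland 1 to 3. Gland 2 was the highest gland library for 431 of them, 77.5%, against 28.5% of all tested transcripts. Without testis 2, 215 of the 556 were called higher in the gland and 10 lower, a shift that follows from how the 556 were picked. Over all transcripts, leaving out testis 2 gave 2464 higher, 18.1%, and 3664 lower, 26.9%, and 2183 and 3525 of these were called alike with it.

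The called transcripts took unequal parts of the reads. Those lower in the gland held 51.0%, 18.2% and 42.3% of all counts in testis 1 to 3 and between 0.92% and 1.47% in the gland libraries. Those higher in the gland took 50.6%, 41.7% and 54.3% in gland 1 to 3 and 13.4%, 22.3% and 18.6% in testis 1 to 3. Testis 2 was thus lowest of its tissue for the first group and highest for the second. The groups were chosen on these libraries, so the side on which they are larger is fixed by the choice.

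A count of 0 in all libraries of a tissue was more common in the gland. On the TMM scale, 3 counts over the tissue were 0.151 CPM in the gland and 0.071 CPM in testis. At an equal TMM-scaled level, a 0 is therefore easier to reach in the gland. Of the whole table, 2829 transcripts had counts in testis and 0 in all gland libraries, while 410 had counts in the gland and 0 in all testis libraries. Only 701 and 17 of these had enough counts to be tested, and they reached the minimum through the other tissue alone. That 700 and all 17 were called is therefore nearly fixed by the filter and supports nothing. Against a limit of 3 counts over the gland libraries, the 701 were at least 4.70-fold to at least 5133-fold lower, with a median bound of 25.9. The transcript with the largest bound has 1809 bases and the male label, with 18760 counts in testis 1, 112 in testis 2 and 13822 in testis 3.

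The 17 transcripts without testis counts were each at least 39.9-fold higher in the gland, with a median bound of 288. Of the 17, 3 carry the female label, 17.6%, while for the 701 without gland counts the share of 63.3% was near the 63.2% of all tested transcripts. The one with the largest bound, at least 5552-fold, has 1716 bases and the male label and stood at 162, 914 and 292 CPM in gland 1 to 3. Its call as higher follows from how it was picked and supports nothing (edgeR, adjusted p = 0.00299). These floors cover counting error only.

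Short transcripts took a larger share of reads in the gland than in testis, and so did the few most abundant transcripts. These shares overlap, since 5 of the 10 transcripts with most reads in the gland are under 1000 bases. The share of short transcripts was not computed without them. Transcripts under 1000 bases took 41.8%, 46.2% and 37.1% of the counts in gland 1 to 3 and 16.8%, 30.2% and 19.2% in testis 1 to 3. The 10 transcripts with most counts in a library took 34.3%, 43.5% and 32.4% in the gland libraries and 16.9%, 23.5% and 13.9% in testis. For both shares the tissues did not overlap, and testis 2 was the testis library nearest to the gland. The 50 transcripts with most counts took 59.5% ± 7.47 in the gland and 33.5% ± 4.61 in testis (SD, n = 3 each). The 95% Wilson interval of each of these shares is at most 0.0345 percentage points to either side and covers counting error only.

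Mean transcript length weighted by counts was 1539, 1504 and 1589 bases in gland 1 to 3 and 1772, 1768 and 1795 bases in testis 1 to 3. The tissue means differed by -234 bases, gland minus testis. Without the 10 transcripts with most counts in each library, the lengths were 1829 ± 13.4 bases in the gland and 1920 ± 102 in testis (SD, n = 3 each). By library they were 1841, 1814 and 1831 bases in gland 1 to 3 and 1841, 2035 and 1885 bases in testis 1 to 3. Gland 1 and testis 1 were thus equal to the nearest base, and testis 2 lay farthest from the gland. Transcripts with the female label took 29.4%, 23.5% and 27.5% of the counts in the gland and 29.9%, 36.3% and 35.0% in testis. Gland 1 and testis 1 lay next to each other in this share.

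**Figure D4:**
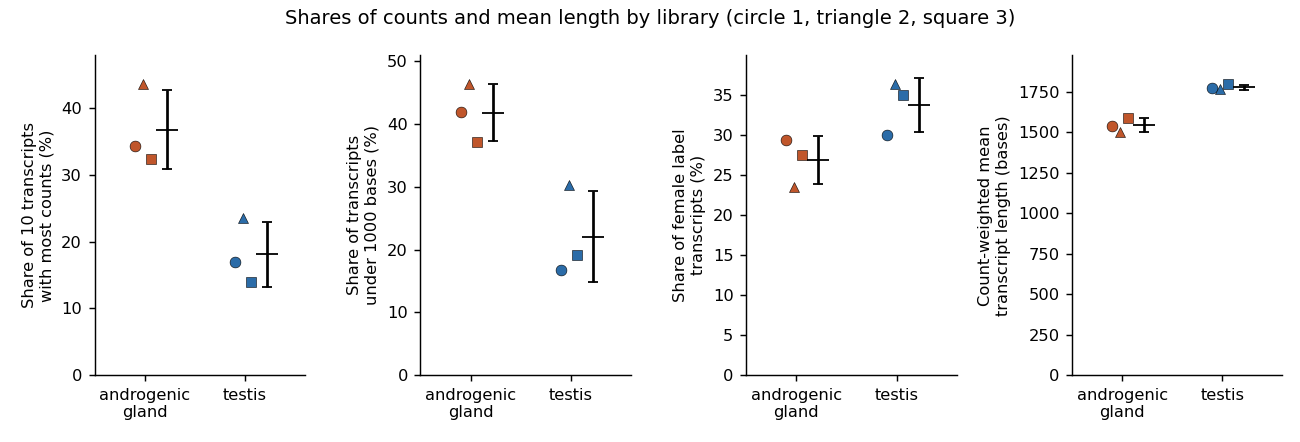
Share of counts on the 10 transcripts with most counts, on transcripts under 1000 bases and on female label transcripts, and count-weighted mean length, with 1 point per library (circle 1, triangle 2, square 3) and bars for mean and SD of 3 libraries. The tissues do not overlap in any panel. Testis 2 is nearest to the gland for the first 2 and for mean length, where it had 1768 bases against 1772 in testis 1.

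The share of the 10 transcripts, the female label share and the mean length were each tested over the libraries. An exact permutation test, two-sided, gave p = 0.1 for each of these 3 values, and 0.1 after Benjamini-Hochberg adjustment over the 3, which is the smallest that 3 against 3 libraries can give. An exact sign-flip test over the 3 pairs gave 0.25 for each, also the smallest possible. Neither of these exact tests can reach a p under 0.05 with so few libraries.

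Length and sex label together picked out short transcripts with the male label. Of 727 tested transcripts of this kind 218 were higher in the gland and 165 lower, 30.0% and 22.7%, against 19.1% and 28.7% of all tested. Their median log2 fold change was 0.37, against -0.25 over all. Of the 1272 tested female label transcripts under 1000 bases 219 were higher and 363 lower, with a median of -0.25. Enough counts to be tested were present for 35.3% of the 5664 transcripts under 1000 bases, against 86.4% of the 6341 of 2000 bases or more.

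Where both tissues reached the count minimum, 168 of 425 short male label transcripts were higher in the gland and 46 lower, 39.5% and 10.8%. The corresponding shares over all such transcripts were 27.4% and 16.8%. Under library size scaling 39 of the 425 were higher and 134 lower, against 379 and 3713 of all 8157 such transcripts. Lower calls thus outnumbered higher ones in this group too, though in smaller proportion than over all such transcripts. The excess of higher calls holds only relative to the bulk of transcripts. No test was made of these groups, and the differences in share are descriptions.

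**Figure D5:**
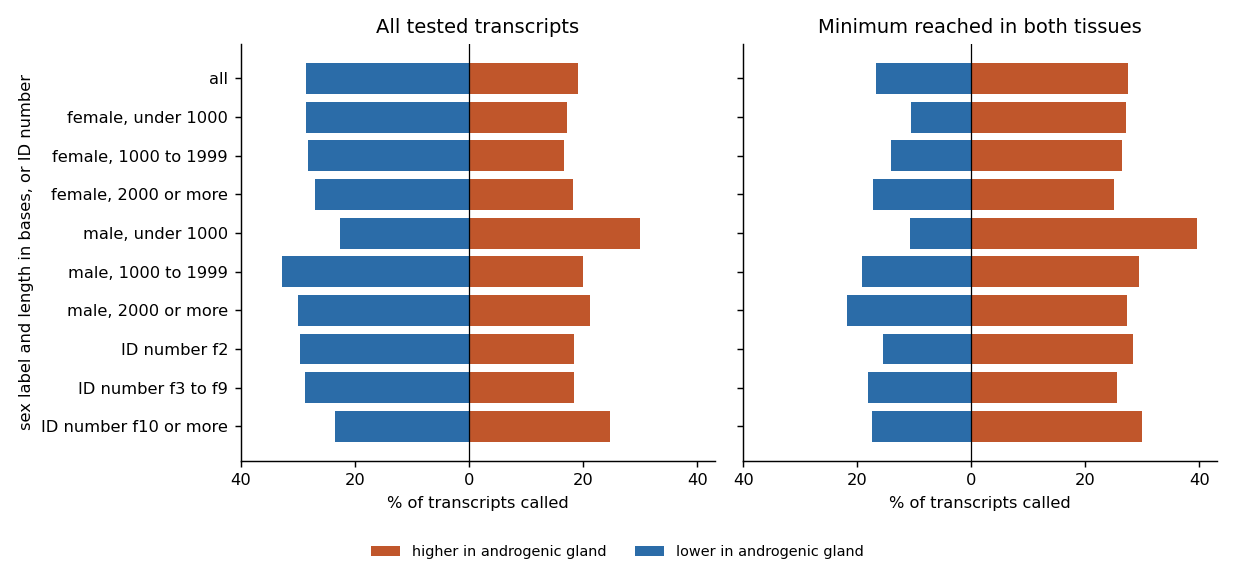
Percentage of transcripts called higher (orange, right) and lower (blue, left) in androgenic gland, by sex label and length in bases and by the number after f in the ID, for all tested transcripts (left) and for those at the count minimum in all libraries of both tissues (right). Male label transcripts under 1000 bases have the largest share called higher in both panels.

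Sex label alone and the number after f moved the balance less. With the male label 1101 of 5009 tested transcripts were higher and 1514 lower, 22.0% and 30.2%, and with the female label 1492 of 8596 were higher and 2385 lower, 17.4% and 27.7%. Transcripts with f10 or more had 350 higher and 335 lower of 1421, 24.6% and 23.6%. Those with f2 had 1277 higher and 2054 lower of 6932, 18.4% and 29.6%. Among transcripts marked LQ 19 of 76 tested were higher and 14 lower, 25.0% and 18.4%. Over all tested transcripts the shares were 19.1% and 28.7%, close to those of f2.

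The balance also differed by level. In the top quartile of tested transcripts by mean level, 1116 of 3401 were higher in the gland and 540 lower, 32.8% and 15.9%. In the lowest quartile 238 of 3402 were higher and 1543 lower. Only 58 of the latter reached the count minimum in all libraries of both tissues, so calls and filter cannot be told apart there. Of those 58, 27 were higher and 0 lower. On the TMM scale the minimum stood higher in the gland, so the filter favours this direction and the count supports nothing. Among transcripts at the minimum in both tissues there was no steady trend, with 24.9% higher and 8.77% lower in the second quartile, 22.4% and 22.3% in the third, and 1112 higher and 532 lower of 3378 in the top quartile. Under library size scaling 248 of the 3401 tested in the top quartile were higher and 1532 lower. Of all tested, 3.87% were higher and 52.9% lower under that scaling.

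Spread between libraries was of like size in the tissues. The median SD of log2 CPM over 3 libraries was 0.45 in testis and 0.47 in the gland. An SD above 2 log2 units was found for 850 transcripts in testis and 946 in the gland. The gland library farthest from its peers was gland 2, at least 4-fold below both others in 532 transcripts and above both in 314. No count in any ovary library was found for 86 of the transcripts called higher in the gland, 3.32%, and for 74 of those called lower, 1.90%, against 225 of all tested, 1.65%.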

How the data were processed

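RNA of 3 androgenic gland and 3 testis samples was profiled by RNA-seq with a directional Illumina kit, per the labels' protocols. The authors deposited 1 estimated count per transcript and library, not scaled to depth, under column names ending in readcount per the file headers. The submitters' processing notes name Bowtie 0.12.2, DESeq 1.10.1 and the mouse build mm8 without roles. The tool that counted the reads and its strand setting are not given.

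Counts were rounded to whole numbers. Transcripts were kept with filterByExpr on the 6 libraries (minimum count 10, minimum total 15), which left 13605 transcripts with 97.01% to 99.88% of each library's counts. A total of 2076 transcripts had no count in the 6 libraries and 5390 too few. The test was edgeR 4.0.16 in R 4.3.3, quasi-likelihood, with a mean per tissue, TMM factors, a prior count of 1 and 4 residual degrees of freedom. The rough SE divides the size of a log2 fold change by the root of its F statistic. The script was tested on simulated data with few transcripts changed, as many higher as lower. This does not check the scaling for a difference as broad as the one here. Same-numbered gland and testis libraries shifted together around their tissue means, with correlations of 0.46, 0.42 and 0.31 across transcripts. Libraries of different numbers correlated at 0.00085 at most. Deviations from a tissue mean cancel within the tissue, so high values for equal numbers force lower ones for different numbers. The contrast is therefore partly built in. The numbers were taken to pair the libraries on these values alone. The labels state no pairing. Alternatives used DESeq2 1.42.0 and limma 3.58.1. Single values per library were tested with SciPy 1.17.1.

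Transcripts named by ID are the 2 per direction with the highest mean CPM in the higher tissue, among 2420 higher and 3682 lower transcripts called with and without the replicate term, without overlap and of 1 sign in all pairs. The comparison, the rule and the groups of transcripts were chosen with earlier results of these data known.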

Additional observations from a re-analysis of the deposited data

How the results depend on the processing

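The counts of 2593 higher and 3899 lower transcripts stayed within 1.5 times under DESeq2, limma-voom, upper quartile scaling, no filter, a minimum of 1 CPM in 3 libraries, the replicate block (2807 and 3979, from pairing by library number) and without both libraries of number 2. Leaving out 1 library gave 2005 to 2464 higher and 3299 to 3664 lower. Library size scaling gave 526 and 7198, as its construction sets all transcripts against the total. An adjusted p under 0.01 gave 1336 and 2396, and a test against a 2-fold change (glmTreat) gave 1448 higher, both stricter by construction. The 4 named transcripts kept their direction under every alternative run, and their call in 55 of 64 settings, the block included. The exceptions were 8 for transcript_HQ_Male_transcript9438/f2p0/1029 and 1 for transcript_HQ_Male_transcript1010/f7p0/2852, at an adjusted p under 0.01 (edgeR, adjusted p = 0.0123). Their calls with the block are fixed by the naming rule, which asks for them.

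The difference in the share of the 10 transcripts with most counts was 18.6 percentage points, 15.2 to 21.3 with 1 library left out and 26.0 for 50 transcripts. For the female label it was -6.92 points, -8.82 to -5.27 with 1 library left out and -12.1 without the 10 transcripts. For mean length it was -234 bases, -257 to -214 with 1 library left out and -91.9 without them. In the last setting gland 1 and testis 1 both stood at 1841 bases, to the nearest base. All kept their direction. Low counts limit transcripts near 1 TMM-scaled CPM, chiefly in the gland, where the TMM factors were lower although total counts were higher.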
